A study of Mus musculus with 6 samples.

Results

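Cholesterol biosynthesis and its regulation were described here by 28 genes, chosen by name for the steps they catalyse or control. The choice was made with earlier results of these data known, so it was not blind to these libraries. They were 7 genes of the mevalonate steps, 11 of the squalene and sterol steps, 5 regulators of the pathway, and 5 genes of sterol carriage, esterification and uptake. All 28 were found among the 28262 genes of the table, and all 28 were among the 14919 genes with enough reads to be tested. The libraries were made from total RNA of Sertoli cells, the somatic cells that enclose and feed the germ cells in the seminiferous tubule, from testes of 20-day-old C57BL/6 mice. Control cells carried floxed Pa1 alleles and no Cre (Pa1F/F, 3 libraries). Knockout cells (Amh-pa1-/-, 3 libraries) carried the same floxed alleles and a Cre transgene driven by the promoter of Amh, a gene that the Sertoli cell expresses, so that other cell types would keep Pa1. PA1 is a protein associated with the MLL3/MLL4 histone methyltransferase complex, and the comparison asks which transcripts of the Sertoli cell depend on it. All cells were purified by enzyme digestion, plated at 34 °C in medium with insulin, EGF and transferrin, and washed to remove unattached germ cells, and the labels give both groups as untreated. The study's methods call the samples biological replicates, but the labels do not say whether libraries of a group came from separate mice, so the p-values measure only the spread between these libraries. Pa1 itself was not analysed here, and the genotype rests on the labels.

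Cholesterol is built from acetyl units through mevalonate, isoprenoids, squalene and lanosterol. The enzymes of this route are controlled together by the SREBP transcription factors, which are made as inactive membrane proteins in the endoplasmic reticulum. When sterols are scarce, the escort protein SCAP carries an SREBP to the Golgi apparatus, where it is cut and released to the nucleus. When sterols are plentiful, INSIG proteins hold SCAP back. In the testis, Sertoli cells make cholesterol and take it up from lipoproteins, and they handle the lipid of the germ cell remnants that they engulf.

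Transcription of the synthesis enzymes is known to run through sterol regulatory elements, at which SREBP acts together with nuclear factor Y, a factor that binds the NF-Y box. The 250 bases before the RefSeq start (GRCm38.p6) were therefore searched on both strands in the 23 of the 28 genes that had a promoter window. Stretches are shown for Hmgcs1, which holds a match to the element, for Mvk, Srebf2 and Insig1, whose transcripts were higher in knockout cells, and for Scap and Apoe, the genes that fell most. Each is written from 5′ to 3′ on the strand of its gene. Capitals mark matches to the element core TCACNCCAC, to the NF-Y box CCAAT, read as ATTGG where it lies on the other strand, and to the E-box CACGTG. The stretch of Hmgcs1 is chr13:119690101-119690350 (+), that of Mvk chr5:114444019-114444268 (+), that of Srebf2 chr15:82147019-82147265 (+), that of Insig1 chr5:28071162-28071362 (+), that of Scap chr9:110333038-110333287 (+) and that of Apoe chr7:19699189-19699438 (-). Those of Srebf2 and Insig1 end where the gene begins in the deposited table.
Hmgcs1: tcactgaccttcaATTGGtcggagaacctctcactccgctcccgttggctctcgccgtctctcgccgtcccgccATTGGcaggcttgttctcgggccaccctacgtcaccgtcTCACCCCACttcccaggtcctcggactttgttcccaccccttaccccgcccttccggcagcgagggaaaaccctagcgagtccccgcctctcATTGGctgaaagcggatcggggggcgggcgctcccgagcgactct
Mvk: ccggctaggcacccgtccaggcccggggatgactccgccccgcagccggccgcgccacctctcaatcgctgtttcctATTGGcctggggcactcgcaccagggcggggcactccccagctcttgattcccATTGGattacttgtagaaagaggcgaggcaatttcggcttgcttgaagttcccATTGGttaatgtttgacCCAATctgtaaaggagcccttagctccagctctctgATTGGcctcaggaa
Srebf2: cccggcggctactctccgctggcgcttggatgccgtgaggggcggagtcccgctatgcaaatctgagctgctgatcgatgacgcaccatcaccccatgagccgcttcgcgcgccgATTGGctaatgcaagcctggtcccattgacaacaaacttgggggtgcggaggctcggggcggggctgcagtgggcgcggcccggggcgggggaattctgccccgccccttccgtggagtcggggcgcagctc
Insig1: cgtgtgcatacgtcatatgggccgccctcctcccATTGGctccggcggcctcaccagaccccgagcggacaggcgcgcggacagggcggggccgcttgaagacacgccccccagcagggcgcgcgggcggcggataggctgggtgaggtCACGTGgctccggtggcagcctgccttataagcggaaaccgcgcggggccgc
Scap: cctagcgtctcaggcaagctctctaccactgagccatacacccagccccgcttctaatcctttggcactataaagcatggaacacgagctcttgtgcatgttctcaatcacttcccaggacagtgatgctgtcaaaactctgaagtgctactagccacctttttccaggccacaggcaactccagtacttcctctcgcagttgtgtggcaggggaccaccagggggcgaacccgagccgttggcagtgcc
Apoe: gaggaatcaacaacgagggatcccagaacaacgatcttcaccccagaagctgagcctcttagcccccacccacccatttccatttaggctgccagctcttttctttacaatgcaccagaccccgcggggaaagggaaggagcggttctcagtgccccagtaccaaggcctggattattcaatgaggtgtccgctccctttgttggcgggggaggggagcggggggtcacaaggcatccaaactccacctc

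The NF-Y box was found in 19 of the 23 promoters (82.6%) and in 36.0% of the windows of the 10559 tested genes that had one. It stood 5 times in the stretch of Mvk, 3 times in that of Hmgcs1, and 1 time each in those of Srebf2 and Insig1. Neither Scap nor Apoe held one in its window. Of the 9 genes that were higher in knockout cells, 8 held the NF-Y box (88.9%), and of the 4 that were lower 2 did (50%), which were Tm7sf2 and Ebp. Among genes that did not pass, it was also in Hmgcs1, Mvd, Lss, Cyp51, Msmo1, Nsdhl, Hsd17b7, Soat1 and Lcat. Of the genes with a window that did not pass, only Dhcr7 lacked it. The element core was found in 1 promoter (4.35%, against 1.03% of all), that of Hmgcs1, from base 137 to base 129 before the start. A looser core, TCNCNCCAC, which includes the first, matched 2 promoters (8.7%, against 6.09% of all), those of Hmgcs1 and Hsd17b7. The E-box, a palindrome counted once per place, was found in 3 promoters (13%, against 8.34%), those of Insig1, Sc5d and Hsd17b7. The GC box, GGGCGG, was in 16 promoters (69.6%, against 59.4%). A match describes letters only, and no binding was measured in these libraries.

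**Figure D1:**
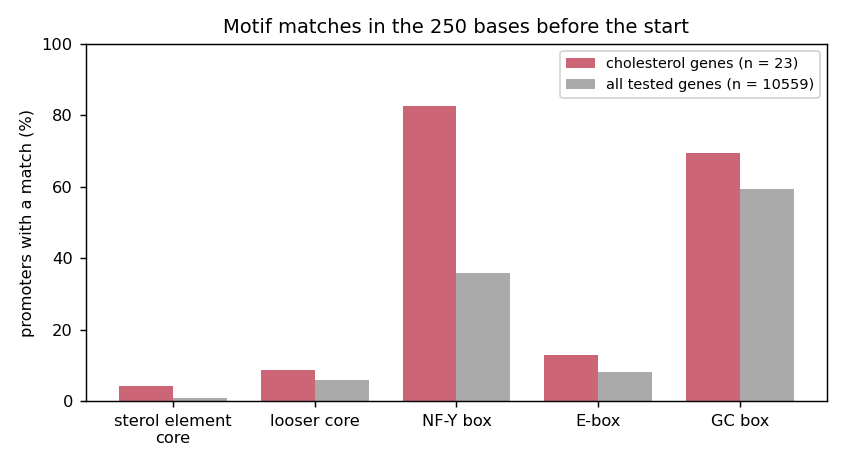
Percentage of promoters with at least 1 match (vertical axis) for each motif (horizontal axis) in the 250 bases before the RefSeq start, for the 23 cholesterol genes with a window and for all 10559 tested genes with one. The NF-Y box stands at 82.6% against 36.0%, and the sterol element core at 4.35% against 1.03%.

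Library totals ranged from 13203757 to 16231443 reads in genes. Knockout replicate 3 stood apart from the other 2 knockout libraries. Over the tested genes, the chi-square per degree of freedom, which is near 1 for counting noise alone, was 29.8 and 27.8 against knockout replicates 1 and 2, while these 2 gave 1.66 against each other. Control replicate 2 stood apart from control replicates 1 and 3 in a like way (19.9 and 18.3, against 2.22 between replicates 1 and 3). Of the 12 Sertoli cell markers, 11 were tested, 3 were lower and none was higher in knockout cells, and their summed normalised counts lay between 234280 and 237744 in control and between 140336 and 181164 in knockout libraries. The lower ones were Gata4 (log2 fold change -0.88), Clu (-0.69) and Inhbb (-1.003). Amh stood at 179 to 254 normalised counts in control libraries and at 43.9, 48.4 and 365 in knockout replicates 1, 2 and 3, and Rhox5 at 15.5 or less throughout. Sox9, Wt1 and Dhh stood at 3172 or more in each of the 6 libraries and did not pass. The 3 tested markers of 7 for Leydig cells, the steroid-making cells between the tubules, were all lower in knockout cells (summed 11680 to 13399 against 2423 to 4230), while Insl3, Cyp17a1 and Hsd3b6 had no count over 5. Of the 9 macrophage markers, 8 were tested and 6 were lower (1857 to 2029 against 1115 to 1385). Of the 5 peritubular myoid markers, 4 were tested and 1, Acta2, was higher (2537 to 3239 against 11886 to 15383), which carried the rise of their sum (3140 to 4000 against 12127 to 17908). Of the 5 endothelial markers 4 were tested, 2 were lower and 1 was higher (1705 to 1794 against 939 to 1486). Both tested markers of the 5 for spermatogonia were lower (43.7 to 81.7 against 18 to 22), neither of the 2 tested of 6 for spermatocytes passed (45.3 to 56.1 against 47.3 to 103), and the 3 of 5 spermatid markers in the table summed to 5.7 or less in each library.

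In the knockout cells, 4 of the 5 regulators and 4 of the 7 genes of the mevalonate steps were moderately higher, while Apoe and the remaining regulator, Scap, fell by more than any other gene of the group. By edgeR's quasi-likelihood test at a Benjamini-Hochberg adjusted p under 0.05, 9 of the 28 genes were higher (32.1%) against 18.2% of all tested genes. In the same test 4 of the 28 were lower (14.3%) against 17.1% of all, and 15 did not pass. At a change of at least 2-fold, 2 of the 28 were lower, Scap and Apoe, against 6.56% of all tested genes. None was higher by 2-fold, against 5.44% of all, also at an unadjusted p under 0.05. The median log2 fold change of the 28 genes, knockout over control, was 0.17, against 0.002 over all tested genes. This shift was about as large as the spread of the libraries' medians over the 28 genes within a group (SD 0.17 on the log2 scale), and without knockout replicate 3 the median was 0.31. In 10 of the 28 every knockout library lay above every control library, against 26.3% of all tested genes, and in 4 every knockout library lay below every control library, against 26.1% of all.

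The count of higher genes depended on the library left out, and most on knockout replicate 3. Without knockout replicate 3, edgeR's quasi-likelihood test called 17 of the 28 genes higher, against 21.9% of the genes then tested, and 4 lower, against 21.2%. The count of higher genes was 4 without knockout replicate 1, 5 without knockout replicate 2, 4 without control replicate 1, 6 without control replicate 2 and 4 without control replicate 3. Between 11.5% and 15% of all genes were called higher in these 5 fits. The count of lower genes was 4 in each of the 6 fits, against 11.1% to 14% of all genes in these 5. Where the closest libraries, control replicates 1 and 3 and knockout replicates 1 and 2, were summed and counted as 1 each, 1 gene (Insig2) was called higher and 2 (Scap and Apoe) lower, against 4.43% and 4.22% of all genes.

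**Figure D2:**
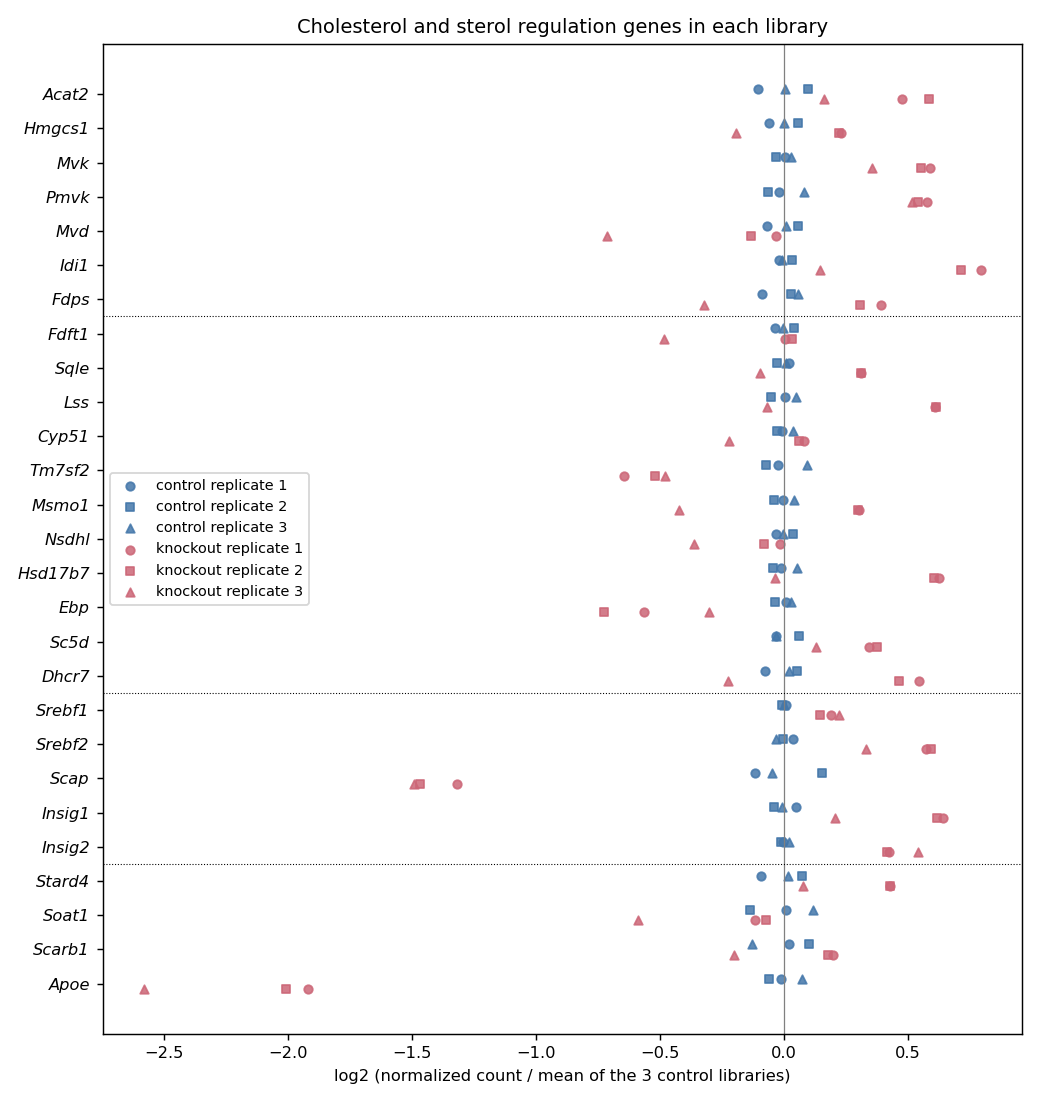
Log2 of the normalised count of each gene in each library over the mean of the 3 control libraries (horizontal axis), for 27 of the 28 genes (rows, in pathway order, with dotted lines between the 4 groups), Lcat being left out for its low count. Blue and red symbols are control and knockout libraries, and triangles are replicate 3, which lies left of the other red symbols in most rows.

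The 5 regulators all passed the test, 4 of them higher (against 18.2% of all tested genes) and 1 lower (against 17.1%) in knockout cells. Scap (chr9:110333288-110384950), which encodes the sterol-sensing escort of the SREBPs, had 3257, 3934 and 3421 normalised counts in control replicates 1, 2 and 3. A normalised count is the number of reads divided by the scaled size of the library and multiplied by the mean size of the 6 libraries. In knockout replicates 1, 2 and 3 Scap stood at 1418, 1278 and 1258, so that every knockout library lay far below every control library. The log2 fold change was -1.42 (SE 0.09, adjusted p = 0.00015 by edgeR's quasi-likelihood test after Benjamini-Hochberg adjustment), a level 2.68-fold lower in knockout cells. In bulk RNA, fewer cells of a type and less RNA per cell cannot be told apart, for Scap as for every gene named here.

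Srebf2, which encodes SREBP-2, the main activator of the cholesterol genes, changed in the opposite direction to Scap. It had 3988, 3876 and 3803 normalised counts in the control libraries and 5792, 5867 and 4891 in the knockout libraries. The groups did not overlap, although knockout replicate 3 was nearer to the controls, and the mean rose from 3889 ± 93.2 to 5517 ± 543 (SD, n = 3 each; log2 fold change 0.50, SE 0.08, adjusted p = 0.0041 by edgeR's quasi-likelihood test). Srebf1, which encodes SREBP-1, the form tied more to fatty acid synthesis, showed a smaller difference with little spread. Its normalised counts were 2641, 2616 and 2630 in control and 2999, 2910 and 3064 in knockout libraries. Knockout replicate 3 was here the highest library, and the log2 fold change was 0.19 (SE 0.05, adjusted p = 0.021 by edgeR's quasi-likelihood test). The call for Srebf1 was lost when control replicate 1, 2 or 3 or knockout replicate 1 was left out (adjusted p = 0.062 to 0.081 by the same edgeR test).

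The genes of both INSIG proteins, the endoplasmic reticulum anchors that retain SCAP, were higher in knockout cells. Insig1, itself a known target of the SREBPs, had 2107, 1982 and 2028 normalised counts in control and 3182, 3125 and 2352 in knockout libraries. No knockout library overlapped the controls, but knockout replicate 3 stood at 74.6% of the mean of the other 2 (log2 fold change 0.50, SE 0.12, adjusted p = 0.016 by edgeR's quasi-likelihood test). The call for Insig1 was lost narrowly when any control library or knockout replicate 1 or 2 was left out (adjusted p = 0.050 to 0.060 by the same edgeR test). Insig2, which is less dependent on SREBP, had 818, 813 and 832 normalised counts in control and 1100, 1094 and 1194 in knockout libraries. Here knockout replicate 3 was the highest, and the log2 fold change of 0.46 (SE 0.06, adjusted p = 0.0021 by edgeR's quasi-likelihood test) had one of the smallest errors in the group. With Scap and Apoe, Insig2 was 1 of 3 genes of the group that passed in each of the 14 other settings tried.

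**Figure D3:**
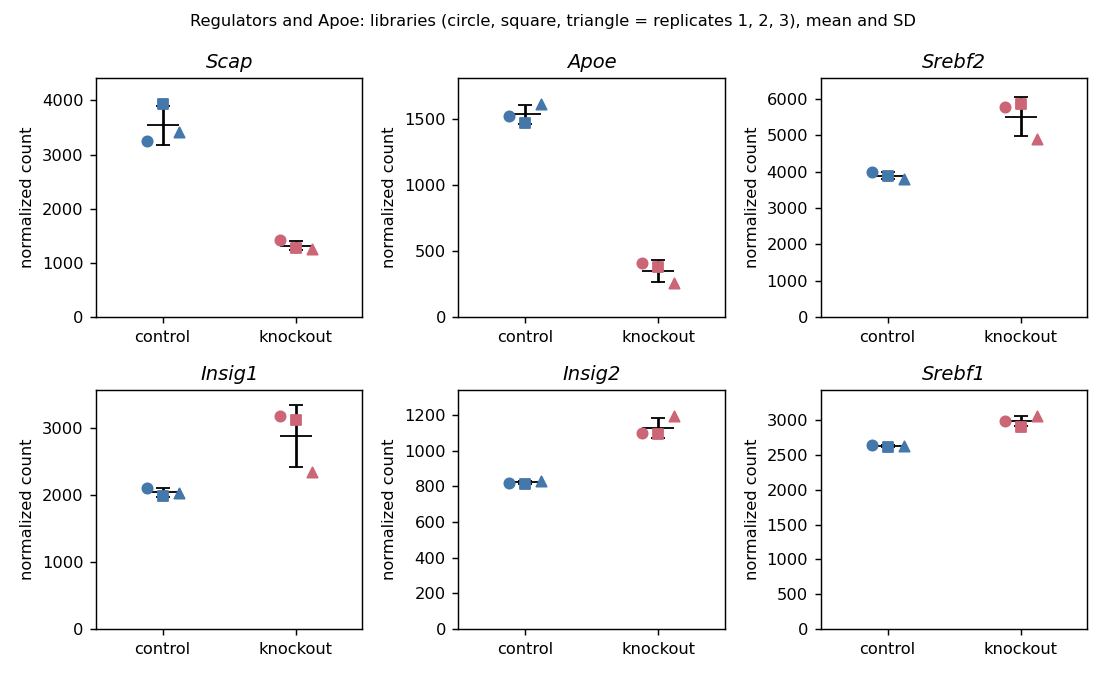
Normalised counts (vertical axes, from 0) of the 5 regulators and Apoe in each control (blue) and knockout (red) library, with circle, square and triangle for replicates 1, 2 and 3, the mean as a horizontal line and the SD as an error bar. Scap and Apoe lie below the controls in each knockout library, and the other 4 genes lie above them.

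The mevalonate steps turn acetyl units into the isoprenoid building blocks. Of the 7 genes 4 were higher (57.1%, against 18.2% of all tested genes), none was lower (against 17.1%), and the median log2 fold change was 0.42. Without knockout replicate 3, 6 of the 7 were higher, against 21.9% of the genes then tested. Mvk, the kinase that phosphorylates mevalonate, had 360, 352 and 366 normalised counts in control and 540, 527 and 459 in knockout libraries. The knockout libraries lay above the controls without overlap, and the log2 fold change was 0.50 (SE 0.09, adjusted p = 0.0059 by edgeR's quasi-likelihood test). Pmvk, the kinase of the following step, had 229, 223 and 247 normalised counts in control and 348, 339 and 333 in knockout libraries. It was the steadiest of the higher enzymes, since its 3 knockout libraries lay close together, with a log2 fold change of 0.55 (SE 0.09, adjusted p = 0.0038 by edgeR's quasi-likelihood test).

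Idi1, the isomerase that readies the isoprenoid unit for chain growth, had a fitted increase close to that of Pmvk but with more spread. It had 892, 925 and 900 normalised counts in control libraries and 1569, 1487 and 1000 in knockout libraries. Knockout replicate 3 lay just above the controls and far below the other knockout libraries, and the log2 fold change was 0.58 (SE 0.16, adjusted p = 0.031 by edgeR's quasi-likelihood test). Acat2, the cytosolic thiolase that joins acetyl units at the entry of the route, had 722, 831 and 778 normalised counts in control and 1082, 1167 and 870 in knockout libraries. The groups again did not overlap, with knockout replicate 3 nearest to the controls (log2 fold change 0.42, SE 0.12, adjusted p = 0.033 by edgeR's quasi-likelihood test). Idi1 did not pass when any control library or knockout replicate 1 or 2 was left out (adjusted p = 0.070 to 0.095 by the same edgeR test). Acat2 did not pass without control replicate 1 or 3 or knockout replicate 1 or 2 (adjusted p = 0.087 to 0.11 by the same edgeR test).

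The other 3 genes of these steps did not pass. Hmgcs1, the synthase that makes HMG-CoA and carries the element core shown above, had 4637, 5027 and 4829 normalised counts in control and 5666, 5632 and 4226 in knockout libraries. Knockout replicates 1 and 2 lay above every control and knockout replicate 3 below every control, so that the means differed little (log2 fold change 0.10, SE 0.12, adjusted p = 0.55 by edgeR's quasi-likelihood test). Fdps, the synthase of farnesyl diphosphate, likewise had replicate 3 under the controls, at lower counts, with 141 to 156 in control and 197, 186 and 120 in knockout libraries. Mvd, the decarboxylase that completes the isoprenoid unit, had 745 to 812 normalised counts in control and 763, 712 and 476 in knockout libraries, and its log2 fold change was -0.26 (adjusted p = 0.27 by edgeR's quasi-likelihood test).

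The squalene and sterol steps close the ring system and trim lanosterol to cholesterol. Of the 11 genes 1 was higher (9.09%, against 18.2% of all tested genes), 2 were lower (18.2%, against 17.1%) and 8 did not pass, with a median log2 fold change of 0.10. Without knockout replicate 3, 6 of the 11 were higher, against 21.9% of the genes then tested, and the median was 0.30. Sc5d, the desaturase of a late step, was the higher gene, with 1093, 1165 and 1093 normalised counts in control and 1416, 1450 and 1220 in knockout libraries. All knockout libraries lay above all controls (log2 fold change 0.29, SE 0.08, adjusted p = 0.030 by edgeR's quasi-likelihood test), but the call was lost without control replicate 1 or 3 or knockout replicate 1 or 2 (adjusted p = 0.086 to 0.10). Both lower genes act on the sterol nucleus after lanosterol. Tm7sf2, a sterol reductase, fell from 213, 206 and 231 normalised counts in control to 139, 151 and 155 in knockout libraries. The groups did not overlap, and the log2 fold change was -0.55 (SE 0.11, adjusted p = 0.0081 by edgeR's quasi-likelihood test). Ebp, the isomerase that shifts the double bond of the sterol ring, fell from 887, 861 and 900 to 597, 534 and 716. Knockout replicate 3 was again nearest to the controls, here as the highest knockout library, and the log2 fold change was -0.52 (SE 0.11, adjusted p = 0.012 by edgeR's quasi-likelihood test).

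In 6 of the 8 genes of these steps that did not pass, knockout replicates 1 and 2 lay above every control library and knockout replicate 3 did not. Lss, the cyclase that makes lanosterol, had 1565, 1504 and 1611 normalised counts in control and 2377, 2385 and 1488 in knockout libraries. Its log2 fold change was 0.42 with an SE of 0.17 (adjusted p = 0.11 by edgeR's quasi-likelihood test). Hsd17b7, the keto-reductase of the demethylation steps, had 1232, 1206 and 1290 in control and 1918, 1890 and 1213 in knockout libraries. Its replicate 3 fell inside the control range, and the log2 fold change was 0.43 (adjusted p = 0.091 by edgeR's quasi-likelihood test). Dhcr7, the reductase of the last step, had 1377, 1505 and 1469 in control and 2115, 2000 and 1239 in knockout libraries. Msmo1, the oxidase that starts removal of the methyl groups, had 3886, 3786 and 4004 in control and 4804, 4780 and 2905 in knockout libraries. In both genes knockout replicate 3 lay below every control, and there was no difference between the means beyond the spread (log2 fold change 0.30, adjusted p = 0.26 for Dhcr7, and 0.10, adjusted p = 0.72 for Msmo1, by edgeR's quasi-likelihood test).

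Sqle, the epoxidase that is a rate-controlling enzyme of the route, had 1792 to 1849 normalised counts in control and 2262, 2265 and 1707 in knockout libraries. Cyp51, the lanosterol demethylase, had 4109 to 4301 in control and 4438, 4377 and 3596 in knockout libraries. The log2 fold changes were 0.19 for Sqle (adjusted p = 0.23) and -0.02 for Cyp51 (adjusted p = 0.88), by edgeR's quasi-likelihood test. Fdft1, the squalene synthase, and Nsdhl, a dehydrogenase of the demethylation steps, were the 2 genes in which knockout replicates 1 and 2 did not exceed the controls. Fdft1 had 2206 to 2325 normalised counts in control and 2268, 2312 and 1617 in knockout libraries. Nsdhl had 914 to 960 in control and 924, 886 and 727 in knockout libraries. In both genes knockout replicate 3 was the lowest of the 6 libraries, and neither passed (log2 fold change -0.13, adjusted p = 0.48, and -0.15, adjusted p = 0.28, by edgeR's quasi-likelihood test).

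Of the 5 genes of carriage, esterification and uptake, 1 was lower, Apoe (20%, against 17.1% of all tested genes), and the other 4 did not pass. Apoe (chr7:19696109-19699188), which encodes the apolipoprotein that carries cholesterol out of cells and into remnants, had 1521, 1471 and 1612 normalised counts in control libraries and 405, 381 and 257 in knockout libraries. Every control library stood far above every knockout library, and the log2 fold change of -2.14 (SE 0.17, adjusted p = 0.00031 by edgeR's quasi-likelihood test) was the largest of the 28 genes, a level 4.42-fold lower. Apoe is also a gene of macrophages and of steroid-making cells. Of the 8 tested macrophage markers 6 were lower with it, and all 3 tested Leydig cell markers were lower, among them Cyp11a1, the first enzyme of steroid synthesis, which went from between 4212 and 4695 normalised counts to between 352 and 377. The macrophage receptor genes Adgre1 and Csf1r stood at 84.2 normalised counts or less in each library, and Lyz2 at 363 to 550 in control and 24.4 to 85.2 in knockout libraries. The part of these cells in the Apoe result was not tested.

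Stard4, a soluble sterol carrier, had 971, 1088 and 1045 normalised counts in control and 1392, 1391 and 1091 in knockout libraries. Each knockout library lay above each control library, replicate 3 by very little, and the test narrowly missed the threshold (log2 fold change 0.32, SE 0.11, adjusted p = 0.057 by edgeR's quasi-likelihood test). It passed in 3 of the 14 other settings tried, among them the fit without knockout replicate 3 (adjusted p = 0.0019). Scarb1, the receptor for high-density lipoprotein that Sertoli cells also use to recognise dying germ cells, had 2596 to 3038 normalised counts in control and 3250, 3210 and 2464 in knockout libraries, with a log2 fold change of 0.07 (adjusted p = 0.69 by edgeR's quasi-likelihood test). Soat1, which esterifies cholesterol for storage, had 5999 to 7141 in control and 6076, 6265 and 4385 in knockout libraries, with a log2 fold change of -0.24 (adjusted p = 0.23 by edgeR's quasi-likelihood test). Lcat, which esterifies cholesterol in plasma lipoproteins, was close to absent, with 10.7 to 16.8 normalised counts in control and 6.8 to 23 in knockout libraries, and no difference could be seen at this depth.

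Across the pathway, knockout replicate 3 was the lowest of the knockout libraries in 23 of the 28 genes, against 41.3% of all tested genes. The exceptions were Tm7sf2, Ebp, Srebf1, Insig2 and Lcat. In 9 genes knockout replicates 1 and 2 lay above every control while knockout replicate 3 did not, against 7.19% of all tested genes. These were Hmgcs1, Fdps, Sqle, Lss, Cyp51, Msmo1, Hsd17b7, Dhcr7 and Scarb1, and in 8 of them replicate 3 lay below every control. Without this library their log2 fold changes ran from 0.07 for Cyp51 to 0.62 for Hsd17b7, given with no test because the order of these libraries chose the genes. The median gene of the group stood in knockout replicate 3 at 76.8% of the mean of the other 2 knockout libraries. For the 7 mevalonate genes summed, knockout replicates 1 and 2 had 10165 and 10050 normalised counts and knockout replicate 3 had 7483, against 7726 to 8322 in the control libraries. For the 11 squalene and sterol genes the sums were 23258, 23030 and 16584, against 19389 to 19921. For the 5 regulators the sums were 14491, 14274 and 12759, against 12714 to 13221, and they add Scap, which was lower, to 4 genes that were higher.

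The same library differed from the other 2 knockout libraries in cell type markers as well. Its summed Sertoli cell markers were 181164, against 140336 and 142008, its Leydig cell markers 4230, against 2423 and 2533, and its peritubular myoid markers 17908, against 12613 and 12127. The Sertoli cell gap lay mostly in Clu (146325, against 105693 and 107472). The Leydig cell gap lay mostly in Star (3762, against 2020 and 2101), while Cyp11a1 differed little (377, against 352 and 364). Among the myoid genes, Myh11 stood at 1605 normalised counts in knockout replicate 3, at 216 and 165 in replicates 1 and 2, and at 481 to 649 in control libraries. Des stood at 485, 43.9 and 46.2 in the same order, and at 93 to 139 in control libraries. Summed macrophage markers were lower in it (1115, against 1337 and 1385), a gap that lay in Mrc1 (932, against 1180 and 1216), while Lyz2 was higher in it (85.2, against 24.4 and 32.7). Their part in the low sterol enzyme levels of this library was not tested. Scap, Apoe, Tm7sf2 and Ebp lay below every control, and Insig1, Insig2, Srebf1, Srebf2, Mvk, Pmvk, Acat2, Idi1, Sc5d and Stard4 above every control, in each knockout library, this one included.

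**Figure D4:**
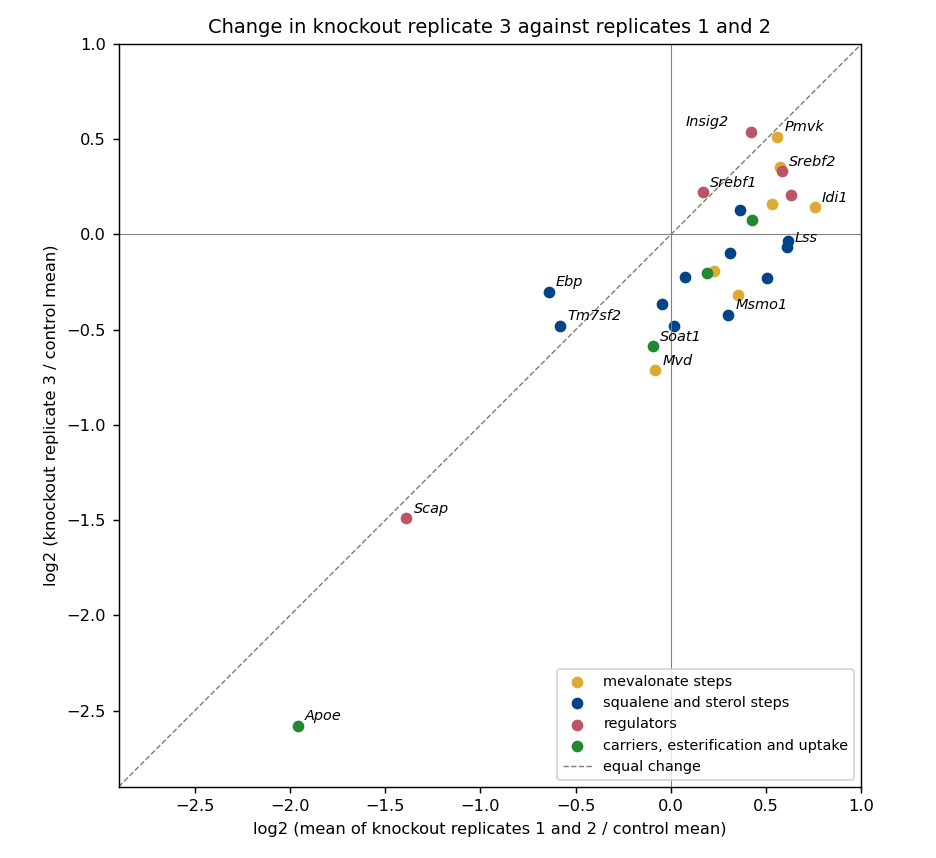
Log2 change of each of 27 genes against the control mean in knockout replicate 3 (vertical axis) and in the mean of knockout replicates 1 and 2 (horizontal axis), coloured by role, with a dashed line of equal change. Lcat is left out for its low count. Most enzymes lie below the dashed line and to the right of 0, while Scap and Insig2 lie near it and Apoe lies below it, at the lower left.

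Per transcript length, the 28 genes differed widely in level in the control cells. RPKM is used here as normalised reads per kilobase of the canonical transcript scaled to library size in the usual way, with a mean and SD over 3 libraries. Msmo1 was highest at 101 ± 2.85 RPKM in control cells. Hmgcs1 (80.2 ± 3.24), Scarb1 (76.0 ± 5.99), Cyp51 (57.4 ± 1.35) and Scap (56.8 ± 5.67) followed. The intervals of Hmgcs1 and Scarb1 overlapped, as did those of Cyp51 and Scap. Mvk (4.97 ± 0.10) and Fdps (7.82 ± 0.41) were the lowest enzymes of the synthesis steps, and Lcat stood at 0.57 ± 0.13. The level of Fdps is less certain, since its reads could be split with its processed copies. In knockout cells Scap stood at 21.2 RPKM, under Srebf2 at 73.9 and Insig1 at 71.7, whereas in control cells Scap, Srebf2 (52.1 ± 1.25) and Insig1 (50.6 ± 1.57) had stood close together.

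Of 44 other genes of sterol and isoprenoid handling, 40 were tested, of which 5 were higher (12.5%, against 18.2% of all tested genes) and 9 lower (22.5%, against 17.1%), with a median log2 fold change of -0.09. Ch25h, Cyp7b1, Soat2 and Pnpla3 had too few reads. Of the 9 genes of the remaining synthesis steps and of SREBP processing, 2 were higher and none lower. Mbtps1, the first of the Golgi proteases that cut SREBP, had 3299 to 3522 normalised counts in control and 4131 to 4282 in knockout libraries (log2 fold change 0.30, adjusted p = 0.0052 by edgeR's quasi-likelihood test). Its knockout libraries lay above its control libraries without overlap. Of the 8 isoprenoid branch genes 1 was higher, Pdss2 of ubiquinone synthesis, at 78.7 to 105 against 141 to 160 normalised counts.

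The 9 lower genes were 1 of efflux, 4 of intracellular transfer and 4 of fatty acid synthesis. Abca1, the transporter that loads cholesterol onto apolipoproteins, fell from between 12942 and 13329 normalised counts to between 7095 and 7293, with no overlap and little spread (log2 fold change -0.87, SE 0.06, adjusted p = 0.00018 by edgeR's quasi-likelihood test). Abca1 was the 1 gene of the 6 tested for oxysterol sensing and efflux that passed (16.7%, against 17.1% of all tested genes lower). Of the 10 tested genes of lysosomal release and intracellular transfer, 4 were lower (40%, against 17.1% of all tested genes) and 1 higher (10%, against 18.2%). Gramd1b, which moves cholesterol from the plasma membrane to the endoplasmic reticulum, fell from between 1393 and 2063 to between 650 and 905 normalised counts (log2 fold change -1.12, adjusted p = 0.0049 by edgeR's quasi-likelihood test). The sterol transfer genes Osbp (-0.42), Osbpl9 (-0.28) and Stard3 (-0.36) were lower on the log2 scale by less. Lipa, the lysosomal lipase that frees cholesterol from its esters, was higher (log2 fold change 0.38, adjusted p = 0.0089 by edgeR's quasi-likelihood test).

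The fatty acid genes that SREBP-1 controls gave a mixed pattern. Of the 7 tested, 4 were lower (57.1%, against 17.1% of all tested genes) and 1 was higher (14.3%, against 18.2%). Acss2 (log2 fold change -0.77), Scd1 (-0.67), Acly (-0.31) and Acaca (-0.31), which supply acetyl-CoA, desaturate stearate or start fatty acid synthesis, were lower. Elovl6, the elongase of palmitate, was higher, with 238 to 302 normalised counts in control and 522, 505 and 357 in knockout libraries (log2 fold change 0.79, SE 0.17, adjusted p = 0.012 by edgeR's quasi-likelihood test). Fasn, the fatty acid synthase, had 11058 to 11677 in control and 15231, 15608 and 10781 in knockout libraries, again with knockout replicate 3 under the controls. Without knockout replicate 3, 10 of the 44 genes were higher and 11 lower by edgeR's quasi-likelihood test, against 21.9% and 21.2% of the genes then tested. The count of lower genes was 5 when another library, that is control replicates 1, 2 or 3 or knockout replicates 1 or 2, was left out, against 11.1% to 14% of all genes. Stard3, Scd1, Acly and Acaca then lost their calls in each of the 5 fits (adjusted p = 0.050 to 0.14 by the same edgeR test). Elovl6 lost its call without control replicate 1 (adjusted p = 0.052), and Pdss2 without control replicate 3 (adjusted p = 0.051) or knockout replicate 2 (adjusted p = 0.058).

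**Figure D5:**
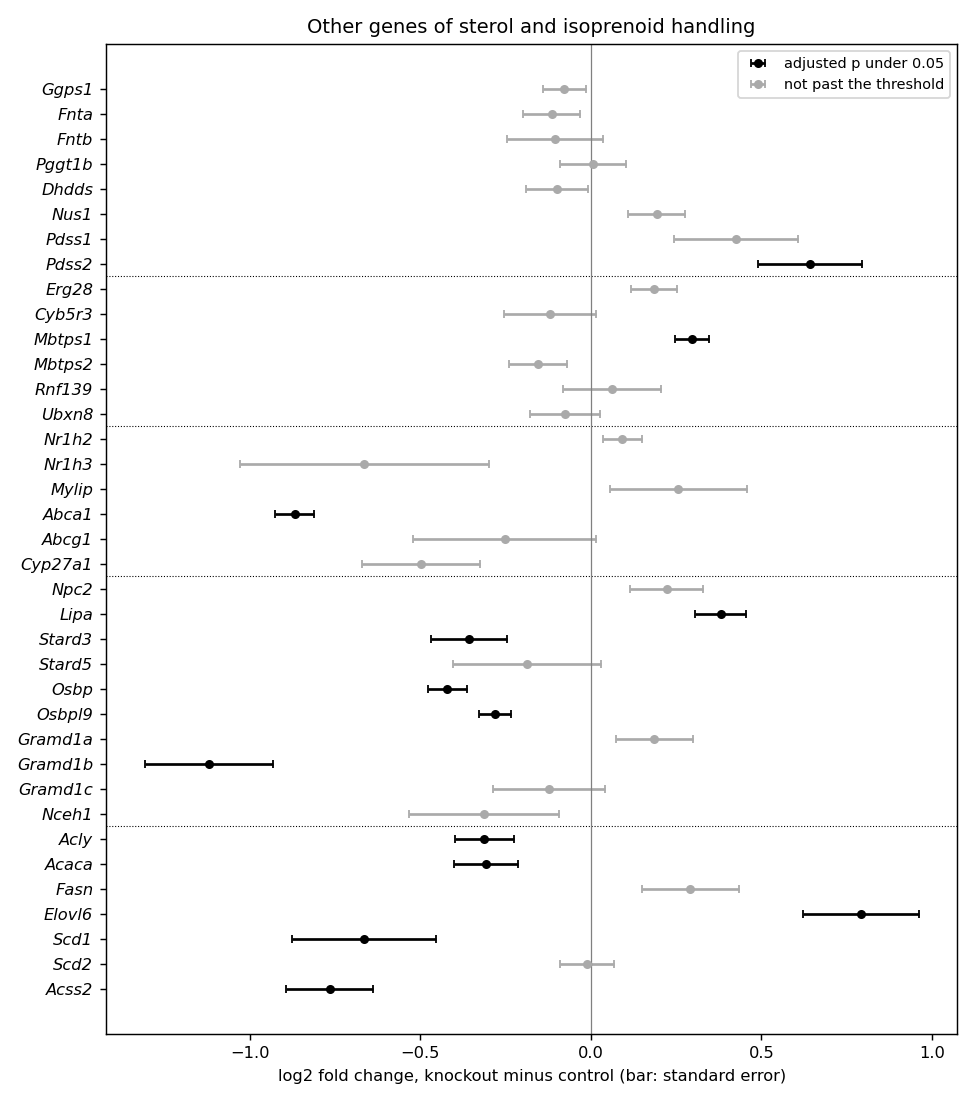
Log2 fold change, knockout minus control (horizontal axis), with its standard error as a bar, for 37 of the 40 tested other genes of sterol and isoprenoid handling (rows, with dotted lines between the 5 groups). Black points passed an adjusted p under 0.05, 4 of them to the right of 0 and 9 to the left.

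Some values are less certain because genes share sequence. Fdft1 overlaps Ctsb, Cyp51 overlaps Akap9 and Srebf1 overlaps Rai1 on the opposite strand, and Tm7sf2 overlaps Vps51 on the same strand. No strand setting of the counting was given in the sources used here, so reads of such pairs cannot be told apart by strand. The reads of Acat2 could be split with its near copy Acat3, and those of Fdps with its processed copies.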

How the data were processed

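RNA-seq was analysed from 6 libraries of mouse Sertoli cells, with groups and replicate numbers taken from the labels. The authors aligned reads to GRCm38 with HISAT2 2.1.0 and counted them per gene with HTSeq 0.6.0, and the deposited counts are raw. The deposited table also holds the authors' own comparison, namely the mean signal over the libraries, the fold ratio, its log2 value and p-values with their adjustment, and none of these were used. Every column of counts per library was used (0 were left out). No strand setting and no molecular identifiers are given in the sources used here. Depth was 13203757 to 16231443 reads per library, and the errors and p-values rest on the spread between libraries.

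Genes were filtered with filterByExpr (minimum count 10, minimum total 15), scaled by TMM and tested in edgeR 4.0.16 (R 4.3.3) with the quasi-likelihood test without further terms. It replaced DEGseq, the test of the study's methods, because that test does not model the spread between replicates. The Benjamini-Hochberg adjustment ran over all 14919 tested genes, with 0.05 as the threshold, and a 2-fold change means a log2 fold change of 1 or more in size. The steps were tested on simulated data. Alternatives were DESeq2 1.42.0 (Wald test, and its size factors in edgeR), library size only, limma-voom (limma 3.58.1), other filters, the replicate number as a block, the closest libraries summed, and each library left out. Python 3.11.15 was used for tables and plots. RPKM used canonical transcript lengths of GENCODE for 1 transcript per gene.

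All 28 genes of the group are named. Of the 44 other genes of sterol handling, those past the threshold are named with values, together with Fasn, which was chosen after its values were seen. A few of these genes are counted but not reported here by name, and the marker genes named are those a result turns on. The members, the other lists and the motifs were chosen with earlier results of these data known. Replicate numbers did not pair the libraries. Correlations of same-numbered libraries' deviations from their group means are given with the alternatives. Promoter windows of 250 bases were taken from RefSeq (GRCm38.p6).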

Additional observations from a re-analysis of the deposited data

How the results depend on the processing

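Of the 28 cholesterol genes, 4 were lower by edgeR's quasi-likelihood test and 2 lower by 2-fold, and both counts kept their value in all 14 alternatives, except for the first when the closest libraries were summed. With the closest libraries summed, 2 cholesterol genes were lower and 1 higher (6 higher at an unadjusted p under 0.05), and of the other sterol genes 1 was lower and 0 were higher by edgeR's quasi-likelihood test (7 and 5 at an unadjusted p under 0.05; DESeq2 was not run on the sums). With each library left out in turn, the count of higher cholesterol genes ranged from 4 to 17, that of higher other sterol genes from 4 to 10 and that of lower other sterol genes from 5 to 11, and the median log2 fold change of the cholesterol genes from 0.11 to 0.31. The count of higher cholesterol genes was 9 with DESeq2's Wald test, its size factors, limma-voom and a minimum of 10 counts in every library, 10 with library size only and 11 without a filter.

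With the replicate number as a replicate block, 8 cholesterol genes were higher and 4 lower, against 12.8% and 12.6% of all genes (Srebf1 no longer passed, adjusted p = 0.085 by edgeR's quasi-likelihood test), and 5 other sterol genes were higher and 7 lower. Same-numbered libraries of the groups correlated at 0.098, -0.15 and -0.17 in their deviations over genes, so the numbers were not used to pair them. No called gene changed direction in any alternative, and 23 of the 28 kept the sign of their fold change in all of them. The causes of these differences were not tested. Depth limits Lcat, at 10.7 to 16.8 normalised counts in control cells, and 3 libraries a group limit every error given here.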
